A study of Homo sapiens with 42 samples.

Results

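The E2F transcription factors and their DP partners were followed as the 10 gene rows with the symbols E2F1 to E2F8, TFDP1 and TFDP2, out of 26228 gene rows, across all 14 groups of libraries. Polyadenylated RNA was sequenced from WT HAP1 cells, a near-haploid human line that derives from chronic myelogenous leukaemia, and from HAP1 cells whose CDK7 carries the C312S change, a serine in place of the cysteine to which covalent inhibitors of CDK7 attach. Each line had 7 groups of 3 libraries, all after 24 h: DMSO, the compound labelled YKL at 500 nM, YKL at 2 µM, THZ531, THZ1, and a combination at 500 nM or at 2 µM. THZ531 binds CDK12 and CDK13 covalently, and THZ1 binds CDK7 covalently and also acts on CDK12 and CDK13. The label of the combination names no compound, and the column names hold both the THZ531 number and the YKL code, so these groups are called THZ531 plus YKL. Doses of THZ531 and THZ1 are not in the labels, so no test between those compounds was made and their values stand side by side. The labels do not say whether the C312S line is 1 clone or whether the libraries are separate cultures, and p-values then measure only the spread between these libraries, which may be technical.

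E2F1 to E2F6 bind DNA as dimers with a DP protein, while E2F7 and E2F8 bind without one, and together they time the genes of DNA replication and the cell cycle. E2F1, E2F2 and E2F3 are held by the retinoblastoma protein and activate transcription once cyclin-dependent kinases phosphorylate it. E2F4 and E2F5 repress with the pocket proteins p107 and p130, E2F6 represses without a pocket protein, and E2F7 and E2F8 are repressors whose genes are themselves E2F targets. CDK7 activates the cell cycle kinases and is part of the general transcription factor TFIIH.

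The promoters of the activator genes are shown because E2F proteins are known to bind their own genes. Each line is the 250 bases before an annotated start, 5′ to 3′ on the strand of the gene, from RefSeq on GRCh38.p14, while hg19 is the build named for the gene table. Capitals mark TTTGGCGC, TTTCGCGC, TTTCCCGC or TTTGCCGC on either strand. E2F1 is at chr20:33686386-33686635 (minus strand), E2F2 at chr1:23531234-23531483 (minus strand) and the first E2F3 start at chr6:20401629-20401878 (plus strand).

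E2F1: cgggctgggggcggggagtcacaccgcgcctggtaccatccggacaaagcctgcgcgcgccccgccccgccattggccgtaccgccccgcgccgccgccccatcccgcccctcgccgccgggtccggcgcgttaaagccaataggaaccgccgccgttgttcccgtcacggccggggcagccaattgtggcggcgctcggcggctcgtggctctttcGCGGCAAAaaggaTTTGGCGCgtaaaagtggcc

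E2F2: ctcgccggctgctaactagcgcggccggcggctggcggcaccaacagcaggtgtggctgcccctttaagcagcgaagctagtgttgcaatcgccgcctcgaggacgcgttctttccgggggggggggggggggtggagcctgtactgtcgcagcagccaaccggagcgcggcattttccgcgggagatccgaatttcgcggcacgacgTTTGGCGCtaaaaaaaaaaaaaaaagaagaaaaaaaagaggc

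E2F3 first start: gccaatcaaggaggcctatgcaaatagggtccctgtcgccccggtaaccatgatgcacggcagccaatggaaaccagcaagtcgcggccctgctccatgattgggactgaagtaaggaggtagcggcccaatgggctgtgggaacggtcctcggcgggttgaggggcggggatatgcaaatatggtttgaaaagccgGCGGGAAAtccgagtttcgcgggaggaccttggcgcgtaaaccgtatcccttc

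The E2F1 window held 2 matches, 20 and 33 bases before the start. The E2F2 window held 1 match 42 bases before its start, the first E2F3 window 1 match 53 bases before, and the TFDP1 window 1 match 120 bases before. The second E2F3 start and the windows of E2F4, E2F6, E2F7 and TFDP2 held 0. Of 35116 windows of this length, 2.79% held any of these motifs and 0.122% held 2 or more. A match describes letters, not a bound site. Windows of 8 of the 10 genes were searched, the others being E2F5 and E2F8. For E2F8 the set of windows held no entry. Any member window on chromosome 8 was left out, while the 35116 windows were not limited in this way. Gene-level values do not separate E2F3 isoforms that begin at different starts.

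Levels are in FPKM, fragments scaled by transcript length and by a measure of library size, so different genes can be set side by side. Which measure was used is not stated. For WT YKL 500 nM against DMSO the median gene was at -0.00188 as deposited. It was at 0.0195 after scaling by the median ratio over genes and at 0.199 after scaling to equal total FPKM. Libraries were compared with limma on log2(FPKM + 1), and a gene was called when its Benjamini-Hochberg adjusted p over the 12816 tested genes was under 0.05. All 10 genes were tested. The depth behind each level is unknown, and errors of levels (SD) are the spread over 3 libraries. The SEs, intervals and limma p-values of changes use a spread estimated within groups over all 42 libraries.

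C312S DMSO and C312S THZ1 stood apart from the other libraries. Summed FPKM averaged 794374 and 852330 there, while the remaining 5 groups of that line had 556810 to 591154. CDK7 was at 60.5 and 75.8 FPKM against 31.7 to 39.8 FPKM. Comparisons with DMSO in C312S rest on these libraries, and additions of YKL to THZ531 do not. Of 10 blood cell markers, PTPRC, SPN, GATA1, HBG1, MPO and LYZ reached at most 0.163 FPKM in any library and CD34 0.398 FPKM, although the line comes from a leukaemia. The other 3 reached higher levels over the 42 libraries: KIT, a receptor of blood progenitors, was at 0.963 to 1.72 FPKM, CD33, a myeloid surface protein, at 0.115 to 1.23 FPKM and HBA1, an alpha globin, at 1.19 to 12.04 FPKM. The summed blood markers were at 9.55 to 13.7 FPKM in WT DMSO and 5.31 to 5.40 FPKM in WT YKL 500 nM. The summed epithelial and fibroblast markers, mostly VIM, were at 503 to 567 FPKM and 349 to 361 FPKM. Of the epithelial markers, EPCAM was at no more than 0.0555 FPKM and CDH1 at no more than 0.0213 FPKM, while the keratins KRT18 and KRT8 were at 23.03 to 43.1 FPKM and 0.388 to 3.47 FPKM. VIM, vimentin, was at 211 to 509 FPKM, FN1, fibronectin, at 4.50 to 14.2 FPKM, THY1 at 0.684 to 17.1 FPKM and COL1A1 at 0.380 to 3.04 FPKM, while COL1A2 and PDGFRB reached at most 0.107 FPKM. The part of these differences in the results was not tested.

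Scaling to the spike-in RNAs moved the median gene by up to -1.99 on the log2 scale (WT THZ1 against DMSO), and scaling to total FPKM by up to 0.361. Of the genes called against DMSO in WT, 48.7% to 51.2% were higher as deposited, 32.5% to 78.5% with total-FPKM scaling and 0.257% to 56.3% with spike-in scaling. In C312S against DMSO the shares were 46.7% to 53.2%, 40.3% to 84.6% and 19.7% to 100%. On adding YKL to THZ531 they were 51.5% to 52.1%, 42.2% to 64.7% and 2.03% to 9.23% in WT, and 53.1% to 67.6%, 38% to 90.6% and 0.238% to 0.314% in C312S. For the differences between the lines they were 47% to 53.1%, 36.4% to 77.1% and 59.8% to 99.9%. For C312S against WT under DMSO they were 52.1%, 21.8% and 0.379%. For 2 µM against 500 nM YKL they were 34.6%, 66.6% and 99.9% in WT, and 55.1%, 63.9% and 100% in C312S.

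**Figure D1:**
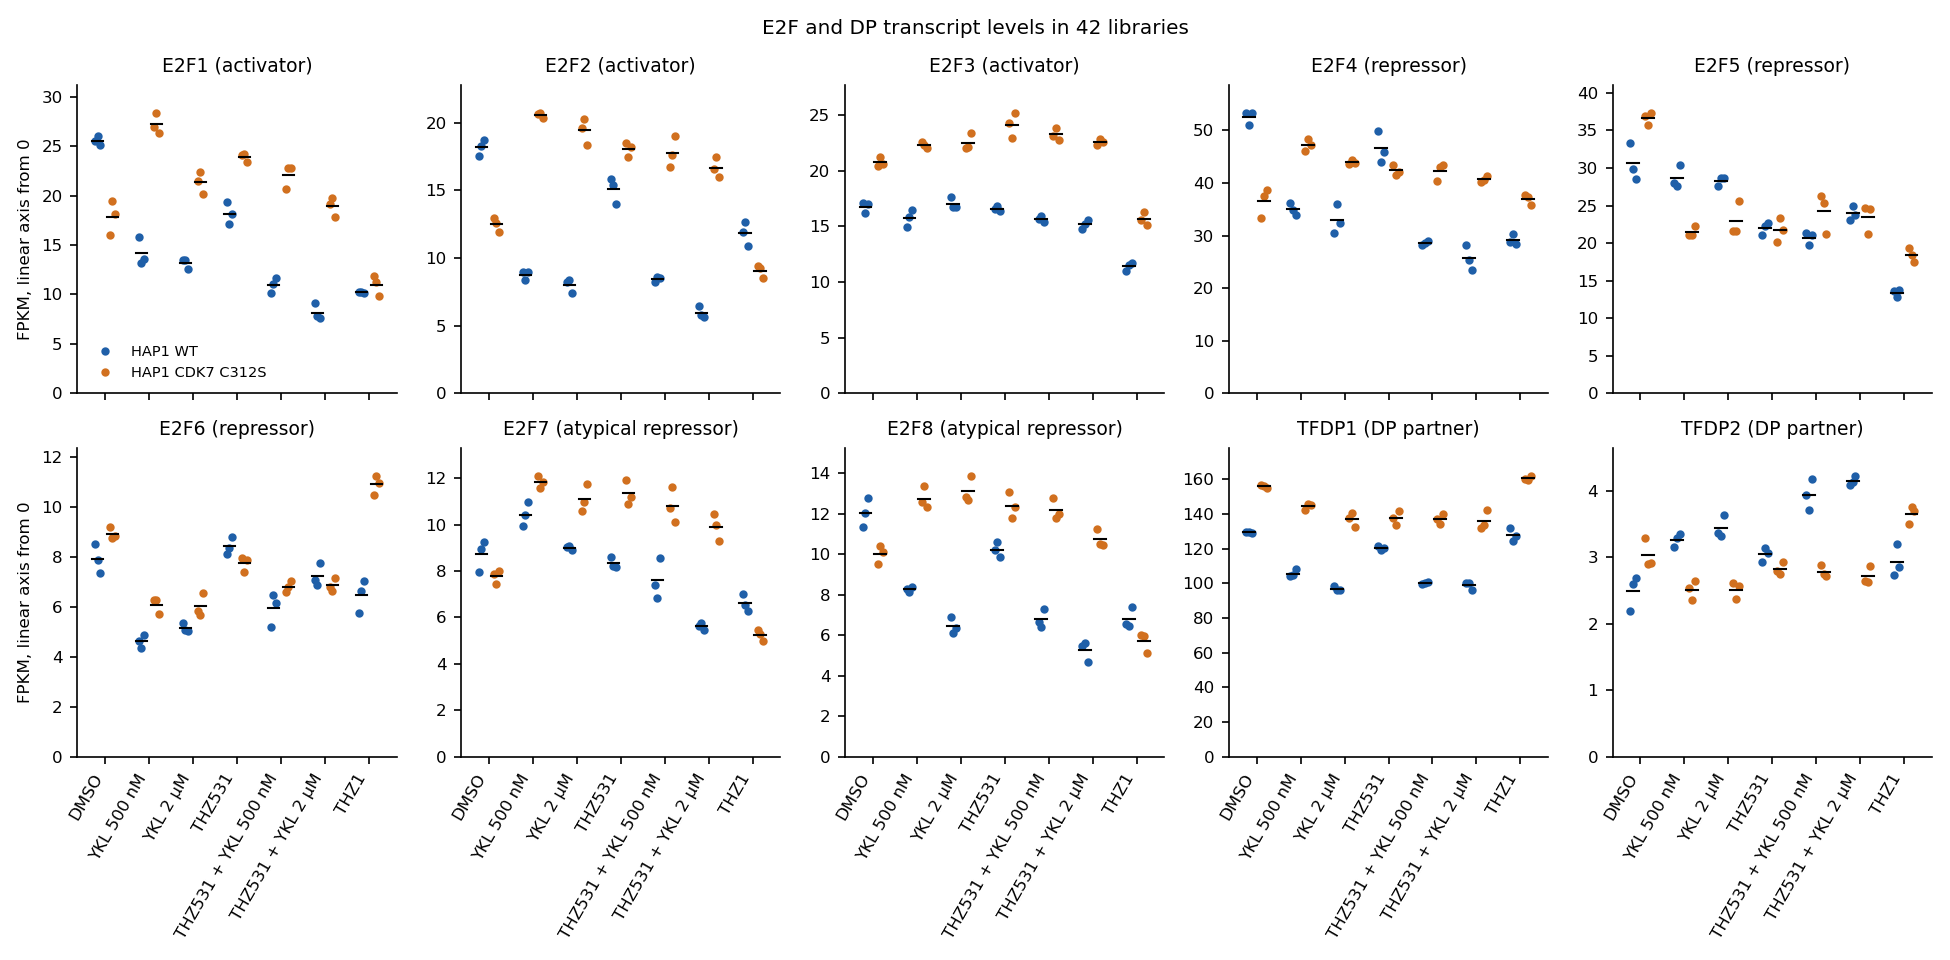
FPKM (linear axes) of each of the 10 genes by treatment in the 42 libraries; points are libraries, black bars are means of 3, and colours are the lines. In WT cells E2F1, E2F2 and E2F4 averaged 25.6, 18.2 and 52.5 FPKM with DMSO and 8.16, 5.96 and 25.7 FPKM with THZ531 plus YKL 2 µM.

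In WT cells given DMSO, TFDP1 was the most abundant of the 10 transcripts and its paralogue TFDP2 the least. TFDP1 was at 129 ± 0.300 FPKM and TFDP2 at 2.49 ± 0.269 FPKM (SD, n = 3). Among the E2Fs the repressors E2F4 (52.5 ± 1.37) and E2F5 (30.6 ± 2.51) led, followed by the activators E2F1 (25.6 ± 0.468), E2F2 (18.2 ± 0.588) and E2F3 (16.7 ± 0.502). E2F8 (12.05 ± 0.716), E2F7 (8.71 ± 0.663) and E2F6 (7.90 ± 0.589) were lowest. Between neighbours in this order, only the libraries of E2F7 and E2F6 overlapped. TFDP1 was first and TFDP2 last in all 14 groups. E2F4 was second in 13 groups, and in C312S DMSO E2F5 was second, with libraries that overlapped those of E2F4. TFDP3, a further DP gene, was listed at 0 in 40 of 42 libraries.

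The activators E2F1 and E2F2 fell with both doses of YKL in WT cells, with log2 changes from -1.09 to -0.81, and so did E2F4, E2F6, E2F8 and TFDP1 by less, while TFDP2 rose. With 500 nM 9 of the 10 were called, 2 higher and 7 lower, beside 63% of all tested genes (31.3% higher, 31.7% lower). With 2 µM 7 of the 10 were called, 1 higher and 6 lower, beside 65.3% of all tested genes (31.8% higher, 33.5% lower). The median log2 change of the 10 was -0.39 and -0.47, and that of all tested genes -0.00188 and -0.00318. In bulk samples, fewer cells of a type and less RNA per cell cannot be told apart.

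E2F1, which drives entry into S phase, was at 25.5, 26.02 and 25.1 FPKM with DMSO, at 15.8, 13.1 and 13.6 FPKM with YKL 500 nM and at 13.4, 13.5 and 12.6 FPKM with 2 µM. Every treated library lay below every DMSO library. The log2 changes were -0.81 ± 0.07 (SE; limma adjusted p = 1.169e-11) and -0.91 ± 0.07 (limma adjusted p = 7.698e-13).

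E2F2, a second activator, was at 17.5, 18.3 and 18.7 FPKM with DMSO, 8.93, 8.39 and 8.95 FPKM with YKL 500 nM and 8.20, 8.37 and 7.44 FPKM with 2 µM. These groups did not overlap, and the changes of -0.98 ± 0.056 (limma adjusted p = 8.278e-16) and -1.09 ± 0.056 had the greatest size among the 10. Of all tested genes, 1.85% and 1.65% had a lower change.

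E2F3, the third activator, was at 17.1, 16.2 and 16.999 FPKM with DMSO and 14.97, 15.9 and 16.5 FPKM with YKL 500 nM, and the groups overlapped. Its change of -0.08 ± 0.036 lay at the threshold (limma adjusted p = 0.04939) and was 0.14 with total-FPKM scaling. The call was lost without DMSO replicate 1 (-0.07) or 3 (-0.07), or without YKL replicate 1 (-0.05) or 2 (-0.09), and with the replicate block (adjusted p = 0.0541). At 2 µM the change was 0.02 ± 0.036 and not called.

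E2F4, a repressor that binds p130 in resting cells, was at 53.4, 50.96 and 53.3 FPKM with DMSO and 36.2, 34.96 and 33.9 FPKM with YKL 500 nM. All treated libraries were lower, and the change was -0.57 ± 0.054 (limma adjusted p = 1.218e-10), with -0.66 ± 0.054 at 2 µM. E2F6, the repressor of the PRC1.6 complex, went from 8.51, 7.85 and 7.33 FPKM to 4.62, 4.34 and 4.88 FPKM at 500 nM, again with no overlap (-0.66 ± 0.064). E2F5, the close relative of E2F4, was at 33.4, 29.9 and 28.5 FPKM with DMSO and 28.04, 27.6 and 30.5 FPKM with YKL 500 nM. These overlapped, and neither dose was called (-0.09, 95% interval -0.23 to 0.05, and -0.11).

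The atypical repressors split. E2F8 was at 11.3, 12.02 and 12.8 FPKM with DMSO, 8.29, 8.14 and 8.36 FPKM with YKL 500 nM and 6.88, 6.11 and 6.37 FPKM with 2 µM, and fell by 0.49 ± 0.062 and 0.81 ± 0.062 on the log2 scale. E2F7 was at 7.97, 8.95 and 9.23 FPKM with DMSO and 9.94, 10.4 and 10.96 FPKM with YKL 500 nM, every treated library being higher. Its change of 0.24 ± 0.059 (limma adjusted p = 0.000902) was -0.36 with spike-in scaling, and at 2 µM it was 0.05 and not called.

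Of the DP partners, TFDP1 went from 129 ± 0.300 FPKM to 106 ± 2.08 FPKM with YKL 500 nM (-0.29 ± 0.028) and 96.9 ± 1.34 FPKM with 2 µM (-0.41 ± 0.028). TFDP2 was at 2.18, 2.59 and 2.69 FPKM with DMSO and 3.16, 3.28 and 3.35 FPKM with YKL 500 nM, with no overlap. Its rise of 0.29 ± 0.052 (limma adjusted p = 1.477e-05) was -0.20 with spike-in scaling.

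Between 2 µM and 500 nM YKL in WT cells 3 of the 10 were called, 0 higher and 3 lower, beside 6.18% of all tested genes (2.14% higher, 4.04% lower). These were E2F8 (-0.31 ± 0.062), E2F7 (-0.19 ± 0.059) and TFDP1 (-0.12 ± 0.028), which were 0.17, 0.31 and 0.42 with spike-in scaling. With total-FPKM scaling 1 of the 10 was called and with spike-in scaling 9. The E2F7 call was lost without any 1 of the 6 libraries, with values from -0.22 to -0.16, and with the replicate block (adjusted p = 0.059). E2F1 and E2F2 were not called, with 95% intervals of the dose difference of -0.23 to 0.05 and -0.23 to -0.0031.

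**Figure D2:**
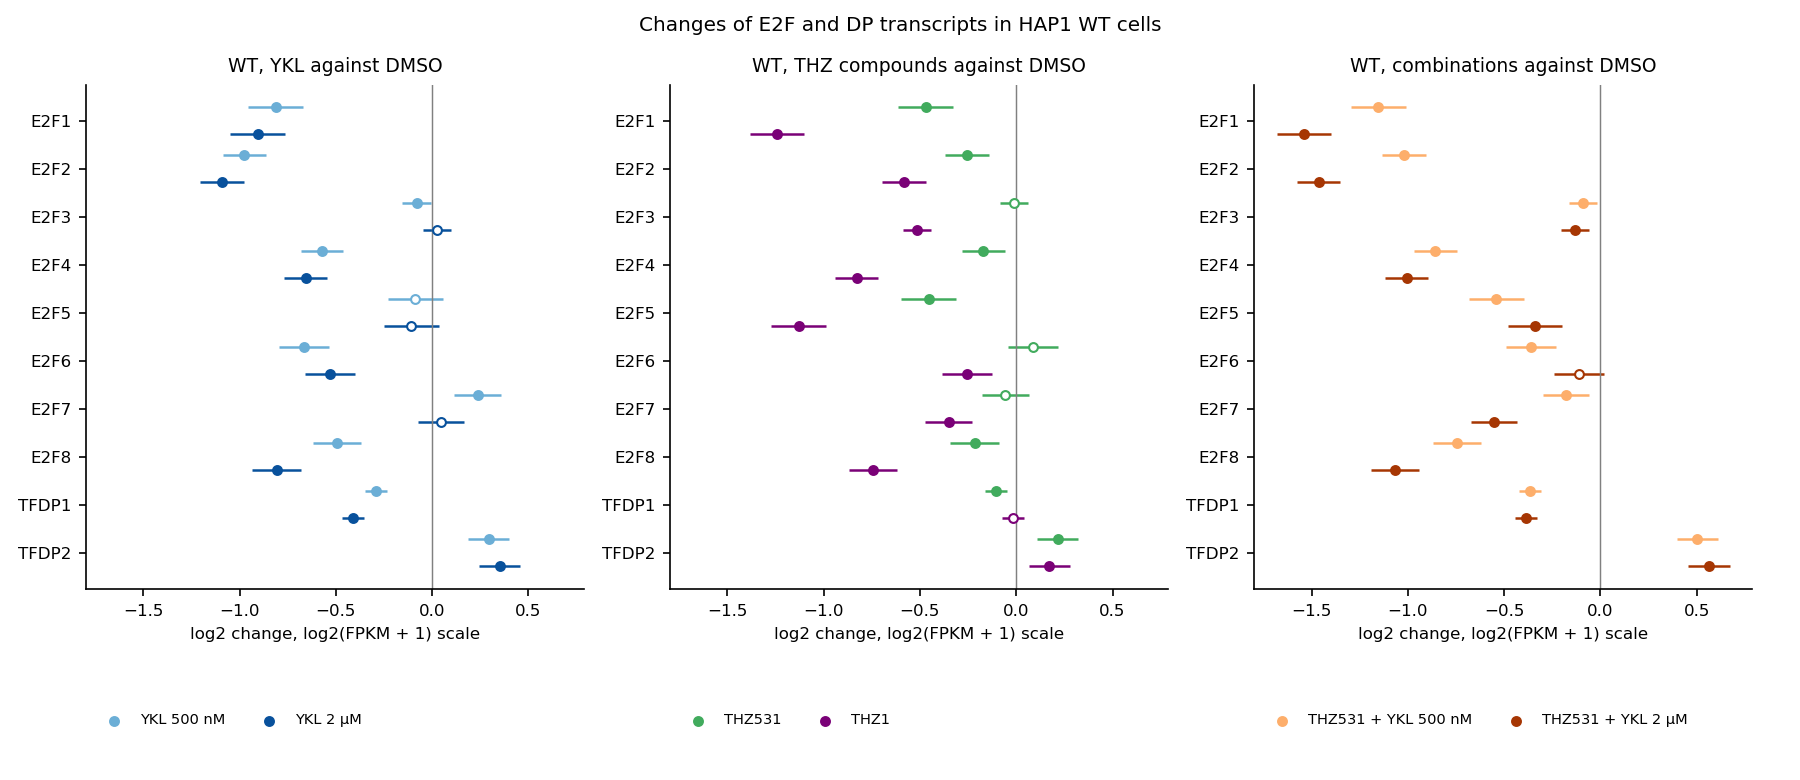
Log2 change of each gene against DMSO in WT cells on the log2(FPKM + 1) scale, as points with 95% intervals; filled points were called by limma and open points were not. E2F1 lay at -0.81 and -0.91 with YKL, -0.47 with THZ531 and -1.24 with THZ1; TFDP2 lay above 0 in all 6 treatments, but was -0.20 (YKL 500 nM), -1.39 (THZ1) and -0.29 (combination at 2 µM) with spike-in scaling.

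With THZ531 alone in WT cells 7 of the 10 were called, 1 higher and 6 lower, beside 46.9% of all tested genes (24% higher, 22.9% lower). E2F1 was at 19.3, 17.1 and 18.1 FPKM, a change of -0.47 ± 0.07. E2F5 was at 21.1, 22.2 and 22.7 FPKM, below every DMSO library, a change of -0.46 ± 0.07. The fall of E2F4 (-0.17 ± 0.054, limma adjusted p = 0.01102) was lost without THZ531 replicate 2 (-0.13). With total-FPKM scaling 4 of the 10 were called, the calls of E2F4 (-0.10), E2F8 (-0.15) and TFDP1 (-0.03) being lost. With spike-in scaling 3 were called, E2F1, E2F5 and TFDP2, and E2F2 (-0.19) was lost as well. E2F3, E2F6 and E2F7 were not called as deposited.

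With THZ1 in WT cells 9 of the 10 were called, 1 higher and 8 lower, beside 68.8% of all tested genes (34% higher, 34.8% lower). E2F1 was at 10.2, 10.3 and 10.2 FPKM (-1.24 ± 0.07) and E2F5 at 13.7, 12.8 and 13.8 FPKM (-1.13 ± 0.07). E2F3 was at 11.04, 11.5 and 11.7 FPKM, below every DMSO library, a change of -0.51 ± 0.036. TFDP1 overlapped DMSO and was not called as deposited (-0.02). With spike-in scaling the median gene of this comparison was at -1.99. The rise of TFDP2 (0.17 ± 0.052) was lost without DMSO replicate 1 (0.11) or THZ1 replicate 2 (0.12), and was -1.39 with spike-in scaling.

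As deposited, THZ531 plus YKL 2 µM had the lowest mean of E2F1, E2F2, E2F4, E2F7 and E2F8 among the 7 WT groups. With spike-in scaling the median gene against DMSO was at -0.926 with this combination and at -1.99 with THZ1. The order of the groups was not examined on that scale. With the combination at 500 nM 10 of the 10 were called, 1 higher and 9 lower, beside 68.2% of all tested genes (34% higher, 34.2% lower), and at 2 µM 9 of the 10 were called, 1 higher and 8 lower, beside 77.1% of all tested genes (38.9% higher, 38.1% lower). At 2 µM E2F1 was at 9.09, 7.79 and 7.59 FPKM, a change of -1.54 ± 0.07, and 0.929% of tested genes had a lower change. E2F2 was at 6.46, 5.81 and 5.61 FPKM (-1.46 ± 0.056) and E2F4 at 28.3, 25.4 and 23.5 FPKM (-1.01 ± 0.054). At 500 nM the E2F3 fall (-0.09) was 0.07 with total-FPKM scaling and was lost without DMSO replicate 1 (-0.08) or 3 (-0.08), or combination replicate 1 (-0.09) or 3 (-0.08). The E2F7 fall at 500 nM (-0.18) was lost without combination replicate 2 (-0.11) or DMSO replicate 3 (-0.14).

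Ratios within a library are not moved by scaling, show unequal change only, and were chosen after the values were seen. The sum of the activators E2F1 to E2F3 over that of the repressors E2F4 to E2F6 was 0.665 ± 0.0292 (SD, n = 3) in WT DMSO. It was 0.566 ± 0.00885 with YKL 500 nM, 0.576 ± 0.0369 with YKL 2 µM and 0.515 ± 0.00973 with THZ531 plus YKL 2 µM, each below every DMSO library. With THZ531 (0.647 ± 0.0174), THZ1 (0.682 ± 0.0152) and THZ531 plus YKL 500 nM (0.635 ± 0.0151) the libraries overlapped those of DMSO. In C312S it was 0.622 ± 0.0262 with DMSO, 0.539 ± 0.0149 with THZ1 and 0.819 to 0.938 in the means of the other 5 groups. The activators over E2F7 and E2F8 had means of 2.07 to 2.92 in the WT groups and 2.62 to 3.26 in the C312S groups.

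Among pairs of genes, E2F1 over E2F4 had a geometric mean of 0.486 in WT DMSO, 0.403 with YKL 500 nM and 0.317 with THZ531 plus YKL 2 µM. None of the 6 WT treatments overlapped DMSO in it. E2F7 over E2F8 went from 0.723 in WT DMSO to 1.26 and 1.40 with the doses of YKL, also with no overlap. TFDP1 over TFDP2 went from 52.2 to 32.3 with YKL 500 nM. The smallest two-sided p of an exact permutation test of 3 libraries against 3 is 0.1, and over the 80 comparisons of 5 ratios the smallest adjusted p was 0.14, so none passed. The other tested ratios were E2F2 over E2F4 and E2F7 over E2F1. E2F2 over E2F4 was 0.346 in WT DMSO, 0.2499 with YKL 500 nM and, going up, 0.404 with THZ1. E2F7 over E2F1 was 0.340 in WT DMSO and 0.739 with YKL 500 nM. E2F3 over E2F4, which was not tested, rose in WT. Its mean was 0.319 with DMSO, 0.452 with YKL 500 nM and 0.595 with THZ531 plus YKL 2 µM. In it every treated WT library lay above every DMSO library. In C312S, E2F1 over E2F4 was 0.488 with DMSO and higher with YKL 500 nM (0.577) and THZ531 (0.564), with no overlap. It was lower with THZ1 (0.2965, no overlap), and the other treatments overlapped DMSO. With YKL 500 nM in C312S, E2F2 over E2F4 went from 0.342 to 0.435 and TFDP1 over TFDP2 from 51.5 to 57.55. On adding YKL 500 nM to THZ531, E2F1 over E2F4 went from 0.39 to 0.383 in WT, with overlap. In C312S it went from 0.564 to 0.522, with no overlap.

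**Figure D3:**
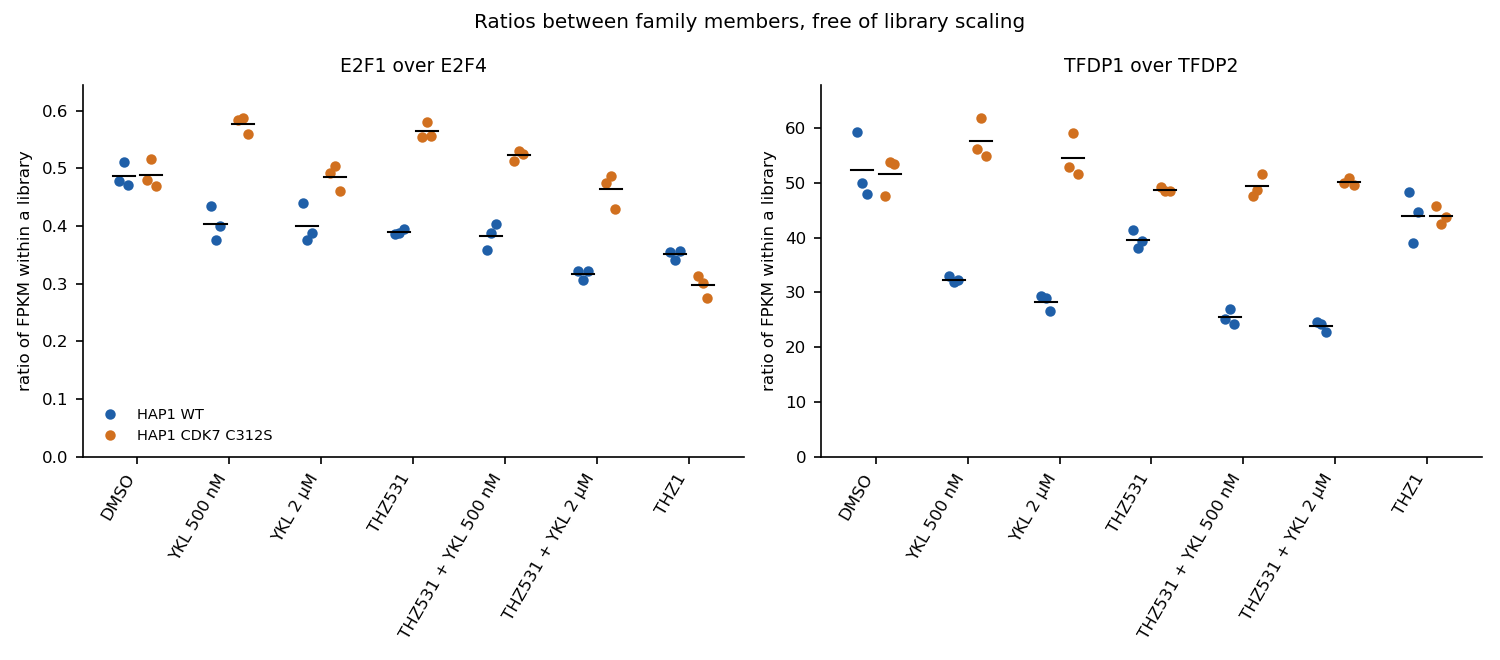
Ratios of FPKM within each library (linear axes) of E2F1 over E2F4 and of TFDP1 over TFDP2; points are libraries, black bars are means of 3, and colours are the lines. The WT libraries of TFDP1 over TFDP2 lay at 22.8 to 24.6 with THZ531 plus YKL 2 µM and at 47.9 to 59.4 with DMSO.

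Adding YKL to THZ531 compares the lines without the C312S groups that stood apart. In WT cells, adding 500 nM lowered E2F1, E2F2, E2F4, E2F6, E2F8 and TFDP1 and raised TFDP2: 7 of the 10 were called, 1 higher and 6 lower, beside 61.1% of all tested genes (31.5% higher, 29.7% lower). In C312S cells 0 of the 10 were called, 0 higher and 0 lower, by limma, beside 0.577% of all tested genes (0.39% higher, 0.187% lower). At an unadjusted p under 0.05 the C312S count was 2 (E2F5 and E2F6), and with spike-in scaling 9 were called. The median change of the 10 was -0.36 in WT and -0.02 in C312S, beside 0.0105 and 0.000494 for all tested genes.

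For E2F2 the WT libraries were at 15.8, 15.4 and 14.02 FPKM with THZ531 and 8.24, 8.62 and 8.50 FPKM after the addition. The C312S libraries were at 18.5, 17.5 and 18.2 FPKM and 16.7, 17.6 and 18.99 FPKM, and overlapped. The added effect was -0.76 in WT and -0.02 in C312S, a difference of 0.74 ± 0.079 (limma adjusted p = 5.255e-09).

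For E2F1 the WT libraries were at 19.3, 17.1 and 18.1 FPKM and 10.1, 11.1 and 11.7 FPKM, and the C312S libraries at 24.1, 24.2 and 23.4 FPKM and 20.7, 22.8 and 22.8 FPKM. The added effect was -0.68 ± 0.07 in WT and -0.11 ± 0.07 in C312S (95% interval -0.25 to 0.03), a difference of 0.57 ± 0.098 (limma adjusted p = 1.96e-05). For E2F4 the difference was 0.68 ± 0.077 (limma adjusted p = 1.831e-08), from -0.69 in WT and -0.0048 in C312S.

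In the difference between the lines (C312S minus WT) for 500 nM, 7 of the 10 were called, 6 higher and 1 lower, beside 41.5% of all tested genes (20.5% higher, 21% lower). E2F8 (0.50), E2F6 (0.28) and TFDP1 (0.26) were also higher, and TFDP2 (-0.31) was lower. With spike-in scaling 4 of the 10 were called. The E2F6 difference was lost without WT combination replicate 1 (0.20). E2F3 and E2F7 were not called, with 95% intervals of -0.08 to 0.13 and -0.12 to 0.23, nor was E2F5 (0.03 to 0.43).

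Adding 2 µM, 9 of the 10 were called, 1 higher and 8 lower in WT, beside 73.5% of all tested genes (38.3% higher, 35.3% lower), and 4 of the 10 were called, 0 higher and 4 lower in C312S, beside 34.8% of all tested genes (18.5% higher, 16.3% lower). E2F1 was at 24.1, 24.2 and 23.4 FPKM in C312S with THZ531 and at 19.1, 19.8 and 17.8 FPKM after the addition, all lower. Its change was -0.32 ± 0.07 (limma adjusted p = 0.000548) in C312S and -1.07 ± 0.07 in WT. The C312S calls of E2F3 (-0.09), E2F7 (-0.18) and E2F8 (-0.19) were lost without single libraries. The count was 1 without C312S combination replicate 3 or THZ531 replicate 1, where E2F8 was -0.17 and -0.15, and 2 without combination replicate 2. With spike-in scaling 10 of the 10 were called in C312S.

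In the difference between the lines for 2 µM, 7 of the 10 were called, 6 higher and 1 lower, beside 53.1% of all tested genes (25.9% higher, 27.2% lower). E2F2 (1.098 ± 0.079), E2F4 (0.78 ± 0.077), E2F1 (0.74 ± 0.098) and E2F8 (0.66 ± 0.087) led, followed by E2F7 (0.32) and TFDP1 (0.26). TFDP2 went the other way (-0.39 ± 0.074). E2F3, E2F5 and E2F6 were not called (0.03, -0.01 and 0.04).

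**Figure D4:**
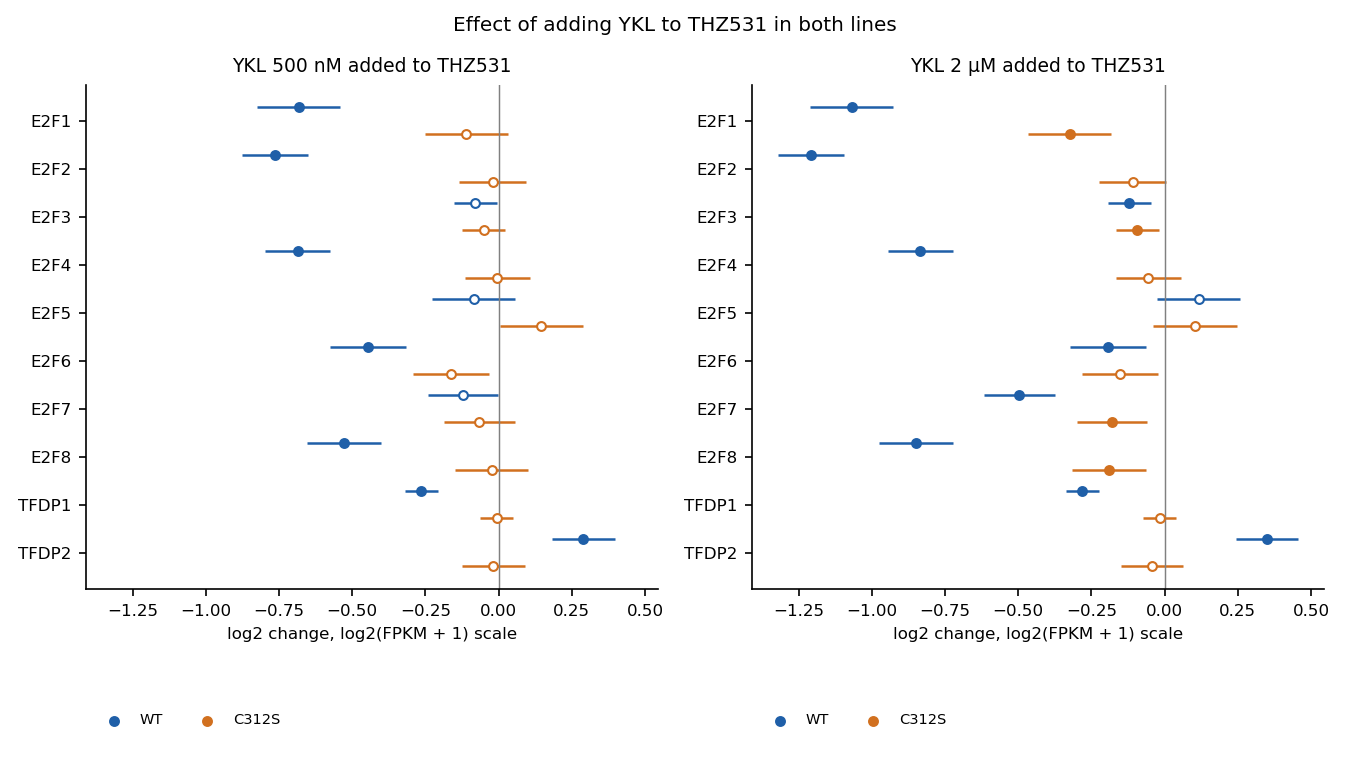
Log2 change on adding YKL to THZ531 in WT and C312S cells, on the log2(FPKM + 1) scale, as points with 95% intervals; filled points were called by limma and open points were not. E2F2 was at -0.76 in WT and -0.02 in C312S with 500 nM, and at -1.21 and -0.11 with 2 µM; TFDP2 was at 0.29 and 0.35 in WT, but at -0.07 and -0.59 with spike-in scaling.

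Against DMSO in C312S cells, E2F1, E2F2, E2F3, E2F4, E2F7 and E2F8 were higher with YKL 500 nM, in a comparison that rests on the DMSO libraries that stood apart. Here 10 of the 10 were called, 6 higher and 4 lower, beside 76.4% of all tested genes (36.9% higher, 39.6% lower). E2F1 was at 16.05, 19.4 and 18.1 FPKM with DMSO and 26.97, 28.4 and 26.4 FPKM with YKL 500 nM, all higher (0.59 ± 0.07). E2F2 rose by 0.68 ± 0.056. E2F5 went from 36.9, 35.8 and 37.4 FPKM to 21.1, 21.02 and 22.3 FPKM (-0.75 ± 0.07), which was 0.37 with spike-in scaling. E2F6 (-0.49), TFDP1 (-0.11) and TFDP2 (-0.20) likewise turned to 0.53, 1.05 and 0.62, and with total-FPKM scaling TFDP1 and TFDP2 were 0.39 and 0.17.

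The other C312S treatments share these DMSO libraries. Every lower call with YKL 2 µM, THZ531 and the combinations turned above 0 with spike-in scaling. With YKL 2 µM those values were E2F5 0.57, E2F6 0.61, TFDP1 1.08 and TFDP2 0.71. TFDP1 also turned above 0 with total-FPKM scaling in each of these treatments, and E2F6 did so with THZ531 and the combinations. With YKL 2 µM 10 of the 10 were called, 6 higher and 4 lower, beside 75.8% of all tested genes (36.6% higher, 39.2% lower). With THZ531 9 of the 10 were called, 6 higher and 3 lower, beside 74.1% of all tested genes (34.6% higher, 39.5% lower), where the E2F6 call (-0.18) was lost without THZ531 replicate 2 (-0.15). With the combination at 500 nM 9 of the 10 were called, 6 higher and 3 lower, beside 73.4% of all tested genes (35% higher, 38.4% lower). With the combination at 2 µM 8 of the 10 were called, 4 higher and 4 lower, beside 68.7% of all tested genes (32.8% higher, 35.9% lower), where the E2F4 (0.16) and TFDP2 (-0.12) calls were lost without DMSO replicate 1 (0.09 and -0.07) and the TFDP2 call also without combination replicate 1 (-0.10) or 2 (-0.10). Between the doses of YKL 1 of the 10 was called, 0 higher and 1 lower, beside 3.67% of all tested genes (2.02% higher, 1.65% lower): E2F1 (-0.34 ± 0.07, limma adjusted p = 0.004745), which was not called with spike-in scaling.

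With THZ1 in C312S, where both groups stood apart, 8 of the 10 were called, 2 higher and 6 lower, beside 63.6% of all tested genes (33.9% higher, 29.7% lower). E2F1 was at 11.8, 11.3 and 9.85 FPKM (-0.65 ± 0.07) and E2F5 at 19.3, 18.4 and 17.4 FPKM (-0.96 ± 0.07), both below every DMSO library. E2F4 was not called (0.02) and E2F6 rose (0.26), where WT had -0.83 and -0.26. In the difference between the lines 4 of the 10 were called, 4 higher and 0 lower, beside 42.2% of all tested genes (22.4% higher, 19.8% lower): E2F4 (0.85 ± 0.077), E2F1 (0.59 ± 0.098), E2F6 (0.52 ± 0.09) and E2F3 (0.13 ± 0.051). With total-FPKM scaling 7 of the 10 were called and with spike-in scaling 10. The E2F3 difference was lost in 8 of the 12 fits that left out 1 library of these groups, with values from 0.10 to 0.13.

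Under DMSO, C312S cells had less E2F1, E2F2, E2F4, E2F7 and E2F8 than WT cells and more E2F3, E2F5, E2F6, TFDP1 and TFDP2. Here 10 of the 10 were called, 5 higher and 5 lower, beside 79.2% of all tested genes (41.3% higher, 37.9% lower). E2F1 (-0.50), E2F2 (-0.51) and E2F4 (-0.51) were lowest against WT, and E2F3 (0.30), TFDP1 (0.27) and E2F5 (0.26) highest. The 5 higher genes turned lower with spike-in and with total-FPKM scaling, E2F3 to -1.07 and -0.19. The E2F6 call (0.16) was lost without C312S DMSO replicate 1 (0.14) or WT DMSO replicate 2 (0.16) or 3 (0.11). The E2F7 call (-0.14) was lost without C312S DMSO replicate 2 (-0.12) or WT DMSO replicate 2 (-0.13) or 3 (-0.11).

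The effects against DMSO also differed between the lines, on the same DMSO libraries. For YKL 500 nM 9 of the 10 were called, 7 higher and 2 lower, beside 73.7% of all tested genes (34.7% higher, 39% lower), with E2F2 at 1.65 ± 0.079 and E2F1 at 1.40 ± 0.098. For YKL 2 µM 8 of the 10 were called, 6 higher and 2 lower, beside 71.8% of all tested genes (34.4% higher, 37.4% lower). For THZ531 9 of the 10 were called, 6 higher and 3 lower, beside 68% of all tested genes (32.7% higher, 35.3% lower), where the E2F5 difference (-0.27) was lost without C312S THZ531 replicate 1 (-0.22) or WT DMSO replicate 3 (-0.23). E2F5 and TFDP2, the lower ones with YKL 500 nM (-0.66 and -0.49), were 1.099 and 0.83 with spike-in scaling.

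Other genes of the pathway were taken from lists of known members. In WT cells with YKL 500 nM, 35 of 40 E2F target genes of DNA replication fell and 1 rose, beside 63% of all tested genes (31.3% higher, 31.7% lower). Their median log2 change was -0.52, and that of all tested genes -0.00188. With total-FPKM scaling 30 fell and 4 rose (median -0.29). MCM6 and MCM7, subunits of the helicase that opens DNA at origins, went from 113 to 48.96 FPKM and from 225 to 106 FPKM. EZH2, a histone methyltransferase, was the gene that rose, from 37.9 to 42.99 FPKM (0.18), and was -0.46 with spike-in scaling. Of 25 genes of G2 and mitosis 23 fell and 0 rose, against the same background of 63% called (median -0.48), and with total-FPKM scaling 19 fell and 2 rose (median -0.25). Among those that fell were TOP2A, a topoisomerase, at -1.14 and CDC20, which activates the anaphase ubiquitin ligase, at -0.86.

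Of the 3 pocket protein genes in the same comparison, RBL1, which encodes p107, fell (from 10.1 to 5.77 FPKM) and RB1 was not called. RBL2, which encodes p130, rose (from 10.96 to 14.9 FPKM, 0.41), and was -0.20 with spike-in scaling. The counts of the next 3 lists are to be read beside the 63% of all tested genes called here (31.3% higher, 31.7% lower), and the balance of falls over rises was not there in any of them with total-FPKM scaling, which moved the median of all tested genes to 0.20. Of 7 genes of the MuvB core and DREAM complex 4 fell and 2 rose (median -0.22), while with total-FPKM scaling 2 fell and 3 rose (median 0.00956) and RBBP4 went from -0.22 to 0.00956. In this list were MYBL2, which joins MuvB in S phase, at -0.85 and the mitotic activator FOXM1 at -0.57. Of 12 partners of E2F6 in PRC1.6 7 fell and 1 rose (median -0.16), with PCGF6 at -0.85. With total-FPKM scaling 1 fell and 3 rose (median 0.0653), and L3MBTL2, CBX3, WDR5 and RYBP turned from a fall to values above 0. Of 11 genes of E2F turnover and cofactors 7 fell and 3 rose (median -0.12), and with total-FPKM scaling 4 fell and 4 rose (median 0.11). CCNF, a ubiquitin ligase subunit, was at -0.77.

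Of 20 G1 and S cyclins, kinases and inhibitors 10 rose and 5 fell with YKL 500 nM in WT (median 0.15), beside 63% of all tested genes (31.3% higher, 31.7% lower). With total-FPKM scaling 13 rose and 2 fell, and with spike-in scaling 4 rose and 14 fell. CCND1 (cyclin D1) rose from 4.09 to 11.7 FPKM and CDKN1A, the kinase inhibitor p21, from 3.72 to 13.6 FPKM. CCNA2 (cyclin A2) fell from 104 to 65.2 FPKM.

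After 500 nM YKL was added to THZ531, 32 of 40 replication genes fell and 4 rose in WT (median -0.48), beside 61.1% of all tested genes called. In C312S limma called 0 of 40 (median -0.04), beside 0.577% of all tested genes, with 8 at an unadjusted p under 0.05 and 40 lower with spike-in scaling, where 78.7% of all tested genes were called. With 2 µM 32 fell and 4 rose in WT (median -0.48), beside 73.5% of all tested genes called. In C312S 18 fell and 7 rose (median -0.05), beside 34.8%, and with spike-in scaling 40 fell. DNMT1, the maintenance DNA methyltransferase, went from 61.2 to 24.6 FPKM in WT and from 59.4 to 46.6 FPKM in C312S. MYBL2 changed by -1.38 in WT and -0.24 in C312S, and FOXM1 by -1.33 and -0.15. The tests of these differences between the lines are not given here.

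With THZ1 in WT, 26 of 40 replication genes fell and 6 rose (median -0.29), beside 68.8% of all tested genes (34% higher, 34.8% lower). With spike-in scaling 40 fell, where 97.1% of all tested genes were called and 0.257% of those calls were higher. GINS1, a subunit that travels with the replication fork helicase, fell from 30.8 to 12.3 FPKM. TYMS, thymidylate synthase, rose from 233 to 347 FPKM (0.58), and was -1.84 with spike-in scaling. With THZ531 in WT, 15 of 40 replication genes fell and 8 rose (median -0.03), beside 46.9% of all tested genes (24% higher, 22.9% lower). This balance was the opposite with total-FPKM scaling, where 9 fell and 17 rose (median 0.05), and with spike-in scaling 3 fell and 3 rose (median 0.04). Of 25 genes of G2 and mitosis 16 rose and 3 fell (median 0.19), with 19 and 2 after total-FPKM scaling and 10 and 2 after spike-in scaling.

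Across the 14 group means, E2F1 followed E2F8 (Pearson r = 0.963), E2F4 (0.918) and E2F2 (0.917), and TFDP2 ran against E2F2 (-0.940), E2F8 (-0.894) and E2F1 (-0.874). E2F5 and E2F6 had r of 0.334 and 0.0331 to E2F1. These describe 14 points that share libraries and scaling. By the same measure, among 8701 genes with a mean of at least 5 FPKM, the pattern most like E2F1 was that of MED22 (0.986), and that most like E2F2 was PFAS (0.974). The nearest to E2F4 was C9orf114 (0.975), to E2F8 POGK (0.976) and to E2F3 FAM129A (0.937). They were ZBED5 for E2F5 (0.946), NECAP1 for E2F6 (0.977), KIAA0319L for E2F7 (0.951), SLC38A5 for TFDP1 (0.973) and RNF103 for TFDP2 (0.976).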

How the data were processed

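The authors deposited FPKM per gene for 42 libraries in 1 table with 92 spike-in rows. Per the submitters' processing notes the tools were HISAT2 2.0.4, Cufflinks 2.2.1 and Cuffnorm with hg19; how they were set is not stated there. Groups came from the sample titles and columns from the descriptions that name them.

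Here limma 3.58.1 (R 4.3.3) was fitted to log2(FPKM + 1) with 14 group means and a trend, for the 12816 genes at 1 FPKM or more in 3 or more libraries, with Benjamini-Hochberg adjustment over them in each of 25 comparisons. This scale understates changes of low genes. The script was tested on simulated data. Alternatives were a pseudocount of 0.1, no filter, total-FPKM, median-ratio and spike-in scaling (23 spike-ins), only the groups compared, a replicate block and each library left out; leaving out C312S DMSO and THZ1 was added after seeing the data. Named were all 10 genes in every comparison, up to 2 rising and 2 falling called genes of each other list with the smallest adjusted p in a comparison, CDK7, CDKN1A, and the genes most like each member. MYBL2, FOXM1 and DNMT1 are followed into further comparisons, and single values there were chosen after they were seen. The members and lists were chosen with earlier results of these data known. Ratio tests used scipy 1.17.1 and the figures matplotlib 3.10.9 under Python 3.11.15.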

Additional observations from a re-analysis of the deposited data

Results flagged for a closer look

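The effect of a treatment differed between the lines, by the interaction term in limma, for these genes; values are C312S minus WT on the log2 scale. For YKL 500 nM against DMSO they were E2F1 1.40, E2F2 1.65, E2F3 0.18, E2F4 0.94, E2F5 -0.66, E2F7 0.31, E2F8 0.81, TFDP1 0.18 and TFDP2 -0.49. For YKL 2 µM against DMSO they were E2F1 1.15, E2F2 1.69, E2F4 0.92, E2F5 -0.55, E2F7 0.42, E2F8 1.17, TFDP1 0.23 and TFDP2 -0.55. For THZ531 against DMSO they were E2F1 0.88, E2F2 0.75, E2F3 0.22, E2F4 0.38, E2F5 -0.27, E2F6 -0.27, E2F7 0.55, E2F8 0.50 and TFDP2 -0.29. For THZ1 against DMSO they were E2F1 0.59, E2F3 0.13, E2F4 0.85 and E2F6 0.52. For adding YKL 500 nM to THZ531 they were E2F1 0.57, E2F2 0.74, E2F4 0.68, E2F6 0.28, E2F8 0.50, TFDP1 0.26 and TFDP2 -0.31. For adding YKL 2 µM to THZ531 they were E2F1 0.74, E2F2 1.098, E2F4 0.78, E2F7 0.32, E2F8 0.66, TFDP1 0.26 and TFDP2 -0.39. The values against DMSO rest on C312S DMSO libraries that stood apart, and the additions to THZ531 do not. All values below 0 for YKL and THZ531 against DMSO turned above 0 with spike-in scaling, and those for THZ531 also with total-FPKM scaling.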

How the results depend on the processing

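No called change of the 10 genes reversed with the pseudocount of 0.1, no filter, median-ratio scaling, only the groups compared, the replicate block or any 1 library left out. With total-FPKM scaling these log2 changes turned. For WT YKL 500 nM against DMSO the values were E2F3 0.14. For WT YKL 2 µM against DMSO the values were E2F5 0.18. For WT combination at 500 nM against DMSO the values were E2F3 0.0659. For C312S YKL 500 nM against DMSO the values were TFDP1 0.39, TFDP2 0.17. For C312S YKL 2 µM against DMSO the values were TFDP1 0.31, TFDP2 0.16. For C312S THZ531 against DMSO the values were E2F6 0.25, TFDP1 0.30, TFDP2 0.28. For C312S combination at 500 nM against DMSO the values were E2F6 0.11, TFDP1 0.32, TFDP2 0.28. For C312S combination at 2 µM against DMSO the values were E2F6 0.0408, TFDP1 0.23, TFDP2 0.19. For C312S against WT under DMSO the values were E2F3 -0.19, E2F5 -0.24, E2F6 -0.29, TFDP1 -0.24, TFDP2 -0.16. For the line difference for THZ531 against DMSO the values were E2F5 0.12, E2F6 0.0947, TFDP1 0.33, TFDP2 0.00416. With spike-in scaling these log2 changes turned. For WT YKL 500 nM against DMSO the values were E2F7 -0.36, TFDP2 -0.20. For WT THZ1 against DMSO the values were TFDP2 -1.39. For WT combination at 2 µM against DMSO the values were TFDP2 -0.29. For WT YKL 2 µM against 500 nM the values were E2F1 0.42, E2F2 0.38, E2F4 0.45, E2F5 0.51, E2F7 0.31, E2F8 0.17, TFDP1 0.42. For WT combination at 500 nM against THZ531 the values were TFDP2 -0.0718. For WT combination at 2 µM against THZ531 the values were E2F5 -1.03, TFDP2 -0.59. For C312S YKL 500 nM against DMSO the values were E2F5 0.37, E2F6 0.53, TFDP1 1.05, TFDP2 0.62. For C312S YKL 2 µM against DMSO the values were E2F5 0.57, E2F6 0.61, TFDP1 1.08, TFDP2 0.71. For C312S THZ531 against DMSO the values were E2F5 0.83, E2F6 1.26, TFDP1 1.43, TFDP2 1.12. For C312S combination at 500 nM against DMSO the values were E2F5 0.61, E2F6 0.74, TFDP1 1.05, TFDP2 0.80. For C312S combination at 2 µM against DMSO the values were E2F5 0.18, E2F6 0.39, TFDP1 0.64, TFDP2 0.46. For C312S combination at 2 µM against THZ531 the values were E2F5 -0.65. For C312S against WT under DMSO the values were E2F3 -1.07, E2F5 -1.15, E2F6 -1.12, TFDP1 -1.17, TFDP2 -0.83. For the line difference for YKL 500 nM against DMSO the values were E2F5 1.099, TFDP2 0.83. For the line difference for YKL 2 µM against DMSO the values were E2F5 0.79, TFDP2 0.42. For the line difference for THZ531 against DMSO the values were E2F5 1.22, E2F6 1.103, TFDP1 1.46, TFDP2 0.83. For the line difference for THZ1 against DMSO the values were E2F7 1.71. For the line difference for adding YKL 2 µM to THZ531 the values were E2F5 0.38. The number of the 10 genes called moved by over 1.5 times as follows. With total-FPKM scaling it went from 7 to 4 for WT THZ531 against DMSO, 3 to 1 for the WT dose of YKL and 4 to 7 for the line difference with THZ1. With spike-in scaling it went from 7 to 3 for WT THZ531, 3 to 9 for the WT dose, 1 to 0 for the C312S dose, 0 to 9 and 4 to 10 for adding YKL 500 nM and 2 µM to THZ531 in C312S, 4 to 10 for the line difference with THZ1 and 7 to 4 for that of adding 500 nM. With only the groups compared it went from 3 to 1 for the WT dose and 4 to 2 for adding 2 µM in C312S, where leaving out 1 library gave 1 to 4. The cause was not tested.

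With the replicate number as a block, 248 of 250 changes kept their call; E2F3 with WT YKL 500 nM (-0.08, limma adjusted p = 0.0541) and E2F7 with the WT dose (-0.19, limma adjusted p = 0.059) lost it, and so did these 2 of 140 without the C312S DMSO and THZ1 libraries. Whether the numbers pair the libraries was not tested. Of 273 same-numbered pairs, 43 had deviations correlated over 0.1 (median 0.017, against -0.00528 for other numbers). Among the 3 numbers, 22 of 42 libraries correlated best with their own, so a weak pairing is not excluded. Depth is unknown, so no limit from it can be stated.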
